A study of Mus musculus with 6 samples.

Results

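The 2′-5′ oligoadenylate synthetase (OAS) family was described in macrophages taken from mouse tumours with and without the scramblase Xkr8. Members were the rows of the deposited count table with the symbols Oas1a, Oas1g, Oas2, Oas3, Oasl1 and Oasl2, which are 6 of 21760 symbols. All 6 passed the filter on low counts and were among the 15560 genes tested. The macrophages had been isolated by flow cytometry from MC38 tumours, which derive from a mouse colon carcinoma line, after 16 days of growth under the skin of C57BL6 mice that received no further treatment. Tumour cells either kept Xkr8 (wild type, WT) or carried its knockout (KO), the KO coming from clone 1 or clone 2, with 2 libraries for each of these 3 groups and 1 mouse for each library. Xkr8 was missing from the tumour cells and not from the macrophages, and each KO line was a single clone, so traits that a clone carries beside the knockout cannot be told apart from it. Neither the age of the mice nor the markers of the sorting gate are given in the sources used here. The comparison asks how macrophages differ when the tumour cells around them lack Xkr8. This scramblase acts in the exposure of phosphatidylserine, a lipid that marks dying cells for uptake. Exposure itself is not measured by these counts.

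OAS enzymes are interferon-induced sensors of double-stranded RNA. Bound to such RNA, they join ATP into short chains with 2′-5′ linkages, called 2-5A, a second messenger of the antiviral response. In macrophages the family is induced through the type I interferon receptor by the factor ISGF3, and its transcripts are often used as a readout of interferon signalling.

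All 6 genes lie on chromosome 5 and are annotated as protein coding (GRCm38, GENCODE M21). Oas2 spans chr5:120730333-120749853, Oas3 chr5:120753098-120777661, Oas1g chr5:120876142-120887613 and Oas1a chr5:120896256-120907521, all on the minus strand. They form a cluster with Oas1b, Oas1c, Oas1d, Oas1e, Oas1f and Oas1h. The OAS-like genes form a pair elsewhere on the chromosome, Oasl2 at chr5:114896936-114912234 and Oasl1 at chr5:114923240-114937915, both on the plus strand. The 250 bases upstream of the start are shown because interferon acts on these genes through elements near the start, and a pair of the members is nearly a copy of each other. Sequences are from RefSeq (GRCm38.p6), which matched 5 of the 6 members, Oas2 being the exception. Each is written 5′ to 3′ on the strand of the gene. Capitals mark GAAANNGAAA, a repeat found in interferon-stimulated response elements, which was searched on both strands.
Oas1a, chr5:120907526-120907775, minus strand: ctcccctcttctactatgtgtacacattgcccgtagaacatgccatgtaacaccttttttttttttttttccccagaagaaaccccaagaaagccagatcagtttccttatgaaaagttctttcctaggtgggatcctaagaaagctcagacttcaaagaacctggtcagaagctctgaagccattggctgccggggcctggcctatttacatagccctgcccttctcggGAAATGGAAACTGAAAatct
Oas1g, chr5:120887614-120887863, minus strand: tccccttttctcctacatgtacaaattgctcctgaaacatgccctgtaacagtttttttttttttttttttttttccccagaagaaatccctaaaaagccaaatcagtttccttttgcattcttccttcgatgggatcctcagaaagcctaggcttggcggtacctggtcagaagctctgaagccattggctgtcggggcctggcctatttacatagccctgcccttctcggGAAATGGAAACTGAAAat
Oas3, chr5:120777660-120777909, minus strand: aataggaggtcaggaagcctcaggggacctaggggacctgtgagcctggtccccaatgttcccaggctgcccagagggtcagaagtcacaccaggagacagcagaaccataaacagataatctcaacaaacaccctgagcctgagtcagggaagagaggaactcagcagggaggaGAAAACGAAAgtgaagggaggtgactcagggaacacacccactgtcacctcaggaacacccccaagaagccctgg
Oasl1, chr5:114922990-114923239, plus strand: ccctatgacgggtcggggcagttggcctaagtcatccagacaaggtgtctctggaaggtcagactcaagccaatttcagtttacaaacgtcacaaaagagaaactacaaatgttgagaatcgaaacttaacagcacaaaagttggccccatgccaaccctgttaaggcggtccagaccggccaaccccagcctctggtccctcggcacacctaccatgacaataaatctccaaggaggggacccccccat
Oasl2, chr5:114896684-114896933, plus strand: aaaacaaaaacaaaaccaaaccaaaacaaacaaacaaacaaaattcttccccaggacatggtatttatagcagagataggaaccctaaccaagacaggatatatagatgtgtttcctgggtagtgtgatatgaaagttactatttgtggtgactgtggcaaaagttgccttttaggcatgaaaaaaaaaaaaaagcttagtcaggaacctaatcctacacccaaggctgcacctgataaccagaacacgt
Oas1a and Oas1g each hold 2 overlapping matches, GAAATGGAAA and GAAACTGAAA, at -20 to -11 and -14 to -5 from the start in Oas1a and at -18 to -9 and -12 to -3 in Oas1g. Oas3 holds 1 match, GAAAACGAAA, at -75 to -66. The windows of Oasl1 and Oasl2 do not hold these letters. The same repeat occurs in 974 of 32817 RefSeq promoter windows of this length (2.97%). Along an alignment of the windows, Oas1a and Oas1g were 82.8% identical, against 41.4% to 49.1% for every other pair of the 5.

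The library of WT mouse 2 stood apart from the rest. It held 20038047 estimated reads against 37090034 to 40022755 in the other 5, Rn45s, the precursor of ribosomal RNA, took 24.6% of it against 1.46% to 7.12%, and 16810 symbols had a count against 18193 to 19250. Fold changes of the members were therefore also computed with each WT library left out. The macrophage markers Adgre1 and Csf1r were abundant in every library, at 528 to 966 and 1059 to 1633 counts scaled to a common library size (CPM). The 11 macrophage markers summed to at least 8779 CPM, and the neutrophil, B cell and epithelial or tumour cell markers to at most 75.3, 13.6 and 44.1 CPM, mostly Csf3r, Cd79b and Cdh1. Fibroblast markers were not scarce, summing to 11981 CPM in WT mouse 2, beside 12510 CPM for the macrophage markers there. In the other 5 libraries fibroblast markers summed to 2392 to 4128 CPM. Monocyte markers summed to 3326 to 4489 CPM over all libraries. Xkr8 itself was at 4.14 to 6.97 CPM in these host cells, which does not check the genotype of the tumours. Levels are CPM on library sizes scaled by the trimmed mean of M-values (TMM), and in bulk RNA fewer cells of a type and less RNA per cell cannot be told apart.

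Across genotypes, 5 of the 6 OAS transcripts were more abundant in every library from a KO tumour than in either WT library. Fold changes of these 5 as estimated by edgeR were 1.60 to 2.02, but none passed the adjusted threshold. The exception was Oasl2, whose WT libraries spanned the KO range. Log2 fold changes of KO against WT were from 0.33 to 1.01 with a median of 0.85, against a median of 0.00 over all genes tested. They came from edgeR's quasi-likelihood test with Benjamini-Hochberg adjustment over all genes, in which an adjusted p under 0.05 was called. Adjusted p ran from 0.188 for Oas1g to 0.643 for Oasl2. The count of members called higher was 0, and the share of all genes called higher was 0.129%. At an unadjusted p under 0.05, 5 of 6 members were higher, against 6.25% of all genes. In 5 of 6 all KO libraries lay above both WT libraries, against 12.9% of all genes, and the fold change was positive in 6 of 6, against 50.2%. DESeq2 on the same counts called 1 member, Oas1g (log2 fold change 0.91, adjusted p = 0.0136), where it called 2.31% of all genes higher. Values by library are shown in the plot of the 6 genes.

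**Figure D1:**
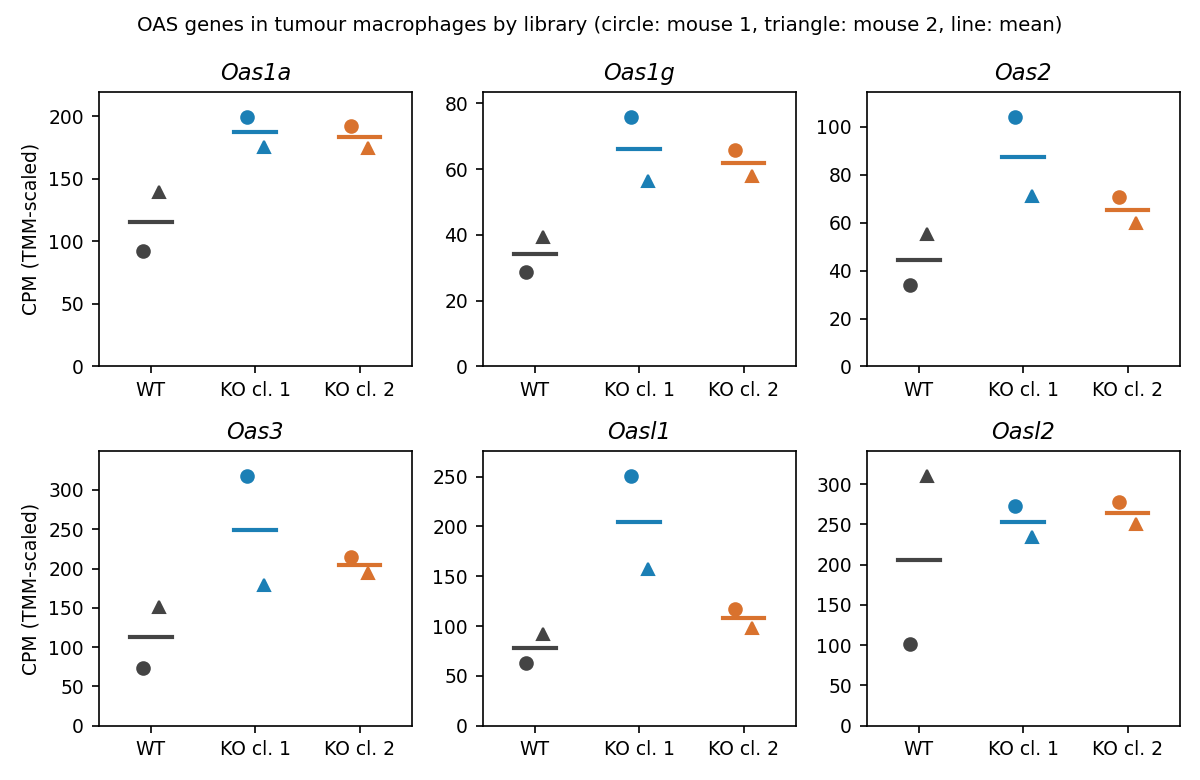
CPM on TMM-scaled library sizes (vertical axes, each from 0) of the 6 OAS genes in the 2 libraries of WT, KO clone 1 and KO clone 2 tumours (horizontal axes); circles are mouse 1, triangles mouse 2, and lines the mean of the group. All 4 KO libraries sit above both WT libraries in every panel but that of Oasl2, where WT mouse 2 is highest at 310.0 CPM and WT mouse 1 lowest at 101 CPM.

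Oas1a and Oas1g encode the small, catalytically active OAS1 enzymes of the mouse. Oas1a was at 92.1 CPM in WT mouse 1 and 139 CPM in WT mouse 2. From KO tumours it was at 199.5 and 176 CPM with clone 1 and at 192 and 175 CPM with clone 2. The groups did not overlap, and the KO libraries lay close together, at 185 ± 12.2 CPM (SD, n = 4) against 116 ± 33.5 CPM (SD, n = 2) in WT. The log2 fold change was 0.68 ± 0.21 (SE; edgeR's quasi-likelihood test, unadjusted p = 0.0124, adjusted p = 0.286).

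Oas1g stood at 28.6 and 39.5 CPM in WT mice 1 and 2. It was at 75.8 and 56.4 CPM with clone 1 and at 65.7 and 57.8 CPM with clone 2. Every KO library was above both WT libraries, and the log2 fold change of 0.91 ± 0.22 (SE) had the smallest adjusted p of the family (edgeR's quasi-likelihood test, unadjusted p = 0.00324, adjusted p = 0.188). Both transcripts are hard to count apart. They were 90.6% identical over the longest annotated transcripts, and of all stretches of 31 bases 68.8% in Oas1a and 55.1% in Oas1g occur in another gene, almost all of them in each other. How the deposited estimates divided such reads is not given in the sources used here. Summed into 1 feature, the pair gave 121 and 179 CPM in WT mice 1 and 2, 275 and 232 CPM with clone 1, and 258 and 233 CPM with clone 2. The log2 fold change of the sum was 0.74 ± 0.21 (SE; edgeR's quasi-likelihood test, adjusted p = 0.274). The ratio of Oas1g to Oas1a was 0.283 to 0.380 over the 6 libraries, with WT mouse 2 lowest and KO clone 1 mouse 1 highest.

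Oas2, a larger synthetase built of repeated OAS domains, was at 34.0 and 55.2 CPM in WT mice 1 and 2. With clone 1 it was at 104 and 71.1 CPM, and with clone 2 at 70.8 and 60.0 CPM. The lowest KO library was only slightly above the higher WT library. The log2 fold change was 0.78 ± 0.29 (SE; edgeR's quasi-likelihood test, unadjusted p = 0.0290, adjusted p = 0.336).

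Oas3, the largest synthetase and a sensor of long double-stranded RNA, was at 73.9 and 151 CPM in WT mice 1 and 2. It was at 317 and 179 CPM with clone 1 and at 214 and 194 CPM with clone 2. KO clone 1 mouse 1 was the highest library and the groups did not overlap. The log2 fold change was 1.01 ± 0.35 (SE; edgeR's quasi-likelihood test, unadjusted p = 0.0222, adjusted p = 0.322). Within a library the ratio of Oas3 to Oas1a was 0.802 in WT mouse 1, 1.59 in KO clone 1 mouse 1 and 1.02 to 1.12 in the other 4. No more than 2.05% of the 31-base stretches of Oas2, Oas3, Oasl1 or Oasl2 occur in another gene.

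Oasl1 encodes a protein without synthetase activity that is known to hold back translation of Irf7, the master factor of type I interferon genes. It was at 63.4 and 92.0 CPM in WT mice 1 and 2. With clone 1 it was at 250.5 and 158 CPM, and with clone 2 at 118 and 98.5 CPM. Both clone 1 libraries lay well above the rest, while the lower clone 2 library was close to WT mouse 2. KO against WT gave a log2 fold change of 1.01 ± 0.39 (SE; edgeR's quasi-likelihood test, unadjusted p = 0.0349, adjusted p = 0.344).

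Oasl2, an OAS-like protein that keeps synthetase activity in the mouse, was at 101 CPM in WT mouse 1 and at 310.0 CPM in WT mouse 2. The KO libraries were at 273 and 234 CPM with clone 1 and at 278 and 251 CPM with clone 2. The KO libraries were close to each other and lay between the WT libraries. The log2 fold change was 0.33 ± 0.39 (SE; edgeR's quasi-likelihood test, unadjusted p = 0.416, adjusted p = 0.643). The ratio of Oasl1 to Oasl2 was 0.626 and 0.297 in WT, 0.918 and 0.672 with clone 1, and 0.423 and 0.392 with clone 2. In log2 CPM centred on each gene's mean, Oasl1 and Oasl2 were the least alike of all 15 pairs of members, with a root mean square difference of 0.55 over the 6 libraries. Oas1a and Oas1g were the most alike at 0.13.

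WT mouse 2 was above WT mouse 1 for all 6 members, so the choice of the WT library moved every fold change. Without WT mouse 2, whose removal leaves WT mouse 1 as the only WT library and assumes that it varies like the KO libraries, the log2 fold changes ran from 0.99 for Oas1a to 1.59 for Oas3. Oasl2 stood at 1.33 in that fit. Without WT mouse 1 they ran from -0.25 for Oasl2 to 0.77 for Oasl1, with 0.71 ± 0.20 (SE) for Oas1g. There WT mouse 2 was the only WT library and was assumed to vary like the KO libraries. Oas3 went from 1.01 to 1.59 without WT mouse 2 and to 0.60 without WT mouse 1. Wherever calls with a WT library left out are given below, they rest on 1 WT library and are not support for single genes. Leaving out KO clone 1 mouse 1, the library with the most Oas3, Oasl1 and Oas2, gave 0.80, 0.68 and 0.60 for these genes. That fit called no member, and only 1 of all 15354 genes it tested.

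**Figure D2:**
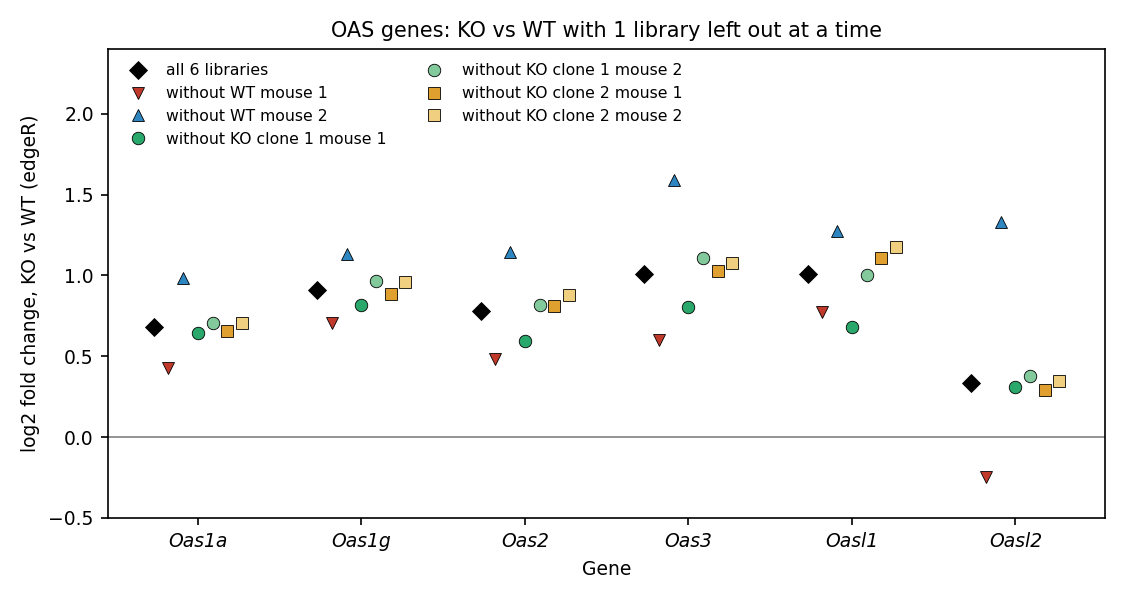
Log2 fold change of KO against WT from edgeR (vertical axis) for the 6 OAS genes (horizontal axis), with all 6 libraries (black diamonds) and with each library left out in turn (other symbols). Removing WT mouse 2 gives the highest value for each gene and removing WT mouse 1 the lowest or close to it, with Oasl2 between -0.25 and 1.33.

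Against the same WT libraries, macrophages of clone 1 tumours gave a median log2 fold change over the 6 members of 0.97 and those of clone 2 tumours 0.61. With clone 1, edgeR's quasi-likelihood test called 0 members, where it called 0.00643% of all genes higher, and 5 of 6 had an unadjusted p under 0.05 and were higher, against 4.25% of all genes. With clone 2 it called 0 members, against 0.00643% of all genes, and 2 of 6, Oas1a and Oas1g, had an unadjusted p under 0.05, against 5.12%. For Oas1a the log2 fold changes were 0.70 with clone 1 and 0.66 with clone 2, and for Oas1g 0.96 and 0.86. For Oas2 they were 0.98 and 0.56, and for Oas3 1.15 and 0.86. Oasl1 had 1.39 ± 0.32 (SE) with clone 1 and 0.48 ± 0.31 with clone 2, with adjusted p = 0.331 and 0.506 in edgeR's quasi-likelihood test. For Oasl2 both values were small against their errors, at 0.30 ± 0.48 and 0.36 ± 0.48. DESeq2 called Oasl1 with clone 1 (log2 fold change 1.38, adjusted p = 0.0144), where it called 1.37% of all genes higher. With clone 2 it called no member, where 324 of 15560 genes were called higher. Without the filter on low counts edgeR called Oasl1 with clone 1 as well (adjusted p = 0.0493), beside 0.492% of all genes. Without WT mouse 1, the median log2 fold change over the 6 members in edgeR was 0.71 with clone 1 and 0.33 with clone 2. Without WT mouse 2 this median was 1.32 with clone 1 and 1.03 with clone 2.

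Between the KO clones, tested directly, Oasl1 had the largest difference of the members. Its log2 fold change of clone 2 against clone 1 was -0.92 ± 0.31 (SE; edgeR's quasi-likelihood test, unadjusted p = 0.0237, adjusted p = 1). It was the only member with an unadjusted p under 0.05, where 1.91% of all genes were lower at that level. The share of all genes called lower after adjustment was 0%, and no member was called. Both clone 2 libraries were below both clone 1 libraries for 2 of 6 members, Oasl1 and Oas2, against 22.7% of all genes. For Oas2 the value was -0.42 ± 0.32 and for Oas3 -0.28 ± 0.41. Oas1a, Oas1g and Oasl2 stood at -0.03 ± 0.26, -0.10 ± 0.26 and 0.06 ± 0.48, which leaves differences of the size of the errors undetected.

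**Figure D3:**
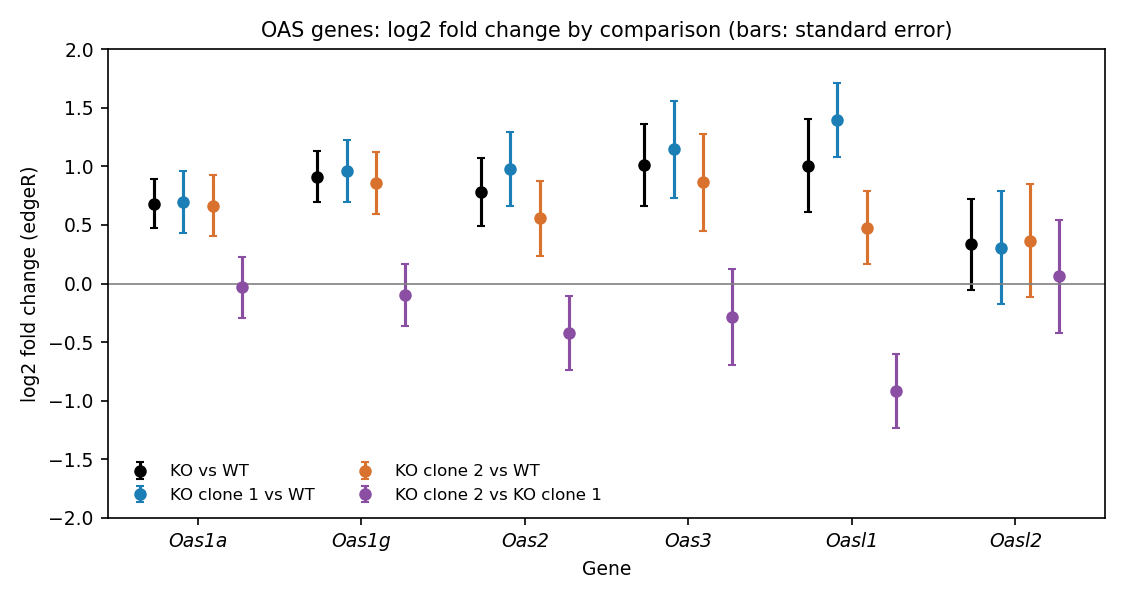
Log2 fold changes from edgeR (vertical axis) of the 6 OAS genes (horizontal axis) for KO against WT, clone 1 or clone 2 against WT, and clone 2 against clone 1; points are estimates and bars 1 standard error. Oasl1 has the widest gap between clones, 1.39 with clone 1 and 0.48 with clone 2, and Oasl2 has bars that cross 0 in every comparison.

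Levels of different genes were compared per kilobase of annotated exons, as CPM per kb. In WT the order was Oas1a at 61.4 ± 17.7 (SD, n = 2), Oasl2 at 32.3 ± 23.2, Oasl1 at 29.8 ± 7.77, Oas3 at 15.9 ± 7.69, Oas1g at 14.6 ± 3.28 and Oas2 at 10.02 ± 3.38 CPM per kb. In KO it was Oas1a at 98.4 ± 6.49 (SD, n = 4), Oasl1 at 59.8 ± 25.9, Oasl2 at 40.6 ± 3.15, Oas3 at 32.0 ± 8.84, Oas1g at 27.3 ± 3.81 and Oas2 at 17.2 ± 4.30 CPM per kb. Oas1a was highest and Oas2 lowest in each of the 6 libraries. The libraries of neighbours in the order overlapped for Oasl2 and Oasl1, for Oas3 and Oas1g and for Oas1g and Oas2 in WT, and in KO for every neighbour pair except Oas1g and Oas2. The order of the upper ranks depended on the length used. Over the longest annotated transcript Oasl2 came first in WT, at 65.8 CPM per kb against 61.4 for Oas1a, and Oas2 remained the lowest in both groups.

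The rest of the Oas1 cluster was scarce in these cells. Oas1b, which C57BL6 mice carry in a truncated form and which the annotation lists as a polymorphic pseudogene, had 9.20 and 10.2 CPM in WT libraries and 9.71 to 14.5 CPM in KO libraries, with a log2 fold change of 0.28 ± 0.23 (SE). Oas1c had 5.42 and 4.27 CPM in WT libraries and 7.14 to 8.47 CPM in KO libraries, and all KO libraries lay above WT. Its log2 fold change was 0.65 ± 0.22 (SE; edgeR's quasi-likelihood test, unadjusted p = 0.0206, adjusted p = 0.318). Oas1h did not exceed 0.679 CPM, and Oas1d, Oas1e and Oas1f had at most 6 counts in a library and were not tested. Of the 3 tested, 0 were called by edgeR's quasi-likelihood test or DESeq2 and 3 had a positive fold change. Without WT mouse 1 the log2 fold change of Oas1c was 0.85.

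For each of the 4 genes listed as partners in the 2-5A pathway, the libraries of the genotypes overlapped. Abce1, a ribosome recycling factor, was at 41.3 CPM in WT mouse 2 and 182 to 235 CPM in the other 5 libraries. Its log2 fold change of 0.70 ± 0.54 became -0.07 without WT mouse 2 and 2.34 without WT mouse 1. For the phosphodiesterase Pde12, which degrades 2-5A, the value was 0.53 ± 0.32, with 0.03 without WT mouse 2 and 1.27 without WT mouse 1. Cnp and Akap7 gave 0.29 ± 0.27 and 0.28 ± 0.24. Without WT mouse 1, Akap7 gave 0.68 and Cnp -0.11. Of these 4 partners 0 were called, 0 had an unadjusted p under 0.05 in edgeR's quasi-likelihood test, and the median log2 fold change was 0.41. DESeq2 also called 0.

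The pathway above the OAS genes was followed in lists of ligands, signalling genes and sensors. Among interferon ligands, 13 of 21 listed genes were in the table and 3 had enough counts to test. Ifnb1, the interferon made first by stimulated macrophages, was at 3.71 and 5.78 CPM in WT, 4.80 and 4.11 CPM with clone 1, and 0.890 and 0.409 CPM with clone 2. The clone 2 libraries were the lowest, and clone 2 against clone 1 gave a log2 fold change of -2.78 ± 0.48 (SE; edgeR's quasi-likelihood test, adjusted p = 0.352). DESeq2 called that difference (adjusted p = 4.43e-05), where it called 63 of 15560 genes lower. So did edgeR without the filter on low counts (adjusted p = 0.0144), where 29 of 21525 genes were called lower. Ifng, the interferon of T and NK cells, was at 0.637 and 1.93 CPM in WT, 7.17 and 5.36 CPM with clone 1, and 7.96 and 3.75 CPM with clone 2. All KO libraries lay above WT, with a log2 fold change of 2.33 ± 0.54 (SE; edgeR's quasi-likelihood test, adjusted p = 0.180). Leaving out WT mouse 2 gave 3.22, and leaving out WT mouse 1 gave 1.67. DESeq2 called Ifng with all libraries (adjusted p = 0.000531). The interferon alpha genes in the table had too few counts to test.

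In the list of interferon receptors and signalling, 0 of 19 tested genes were called by edgeR's quasi-likelihood test, 7 were higher at an unadjusted p under 0.05 and 15 had a positive fold change, with a median log2 fold change of 0.36. Irf9 and Stat2, which belong to ISGF3, gave 0.53 ± 0.17 (SE) and 0.09 ± 0.28. Irf7, the factor whose translation Oasl1 holds back, was at 174 and 209 CPM in WT, 654 and 511 CPM with clone 1, and 511 and 487 CPM with clone 2. It did not overlap between genotypes, at a log2 fold change of 1.50 ± 0.21 (SE; edgeR's quasi-likelihood test, adjusted p = 0.0561). The receptor chains Ifnar1 and Ifnar2 gave 0.17 ± 0.17 and 0.53 ± 0.19. With all libraries Irf7 passed the threshold in DESeq2 (adjusted p = 9.96e-09), in limma-voom (adjusted p = 0.0490), where 0.103% of all genes were called higher, and in edgeR without the filter on low counts (adjusted p = 0.0186), where 0.479% were. DESeq2 called 1 other gene of the list, the kinase Jak2, which signals below interferon receptors (log2 fold change 0.93, adjusted p = 0.000568). Without WT mouse 1, a fit in which 21.9% of all genes were called higher and 15.7% lower, edgeR's quasi-likelihood test called 7 of the 19 higher and 5 lower. In that edgeR fit Irf7, Irf9 and Ifnar2 gave 1.38, 0.72 and 0.77. Without WT mouse 2 they gave 1.61, 0.36 and 0.31, and none of the 19 was called.

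The list of double-stranded RNA sensors and effectors gave 0 calls among 15 tested genes in edgeR's quasi-likelihood test. At an unadjusted p under 0.05, 6 were higher and 1 lower, against 7.38% of all genes lower at that level. The list's median log2 fold change was 0.38. DESeq2 called 5 of the 15 higher, namely Ifih1, Tlr3, Zbp1, Eif2ak2 and Zc3hav1. Ifih1, the sensor MDA5, gave 1.22 ± 0.21 (SE; edgeR's quasi-likelihood test, adjusted p = 0.0891; DESeq2, adjusted p = 4.04e-05), and edgeR called it without the filter on low counts (adjusted p = 0.0475). Tlr3, the endosomal sensor, gave 1.26 ± 0.32, Zbp1, which binds left-handed RNA and DNA, 1.07 ± 0.24, Eif2ak2, the kinase PKR, 0.80 ± 0.22, and Ddx58, the sensor RIG-I, 0.77 ± 0.24. Without WT mouse 2 none of the 15 was called, and the values were 1.01 for Ifih1, 0.88 for Tlr3, 1.40 for Zbp1, 0.52 for Eif2ak2 and 0.56 for Ddx58. Without WT mouse 1, which leaves WT mouse 2 as the only WT library, they were 1.44, 1.75, 0.80, 1.13 and 0.98. The cGAS-STING list, built around a DNA sensor whose fold is related to that of the OAS enzymes, had 0 of 11 called by edgeR's quasi-likelihood test, 2 higher at an unadjusted p under 0.05 and a median of 0.16, and DESeq2 called 2, Ifi204 and Trex1. In it Mb21d1, which encodes cGAS, gave 0.75 ± 0.40, with 0.12 without WT mouse 2 and 1.85 without WT mouse 1.

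Among IFIT and other antiviral effectors, 1 of 25 tested genes was called higher. Ifit1bl1 rose by a log2 fold change of 2.11 ± 0.23 (SE; edgeR's quasi-likelihood test, adjusted p = 0.0290). That call was lost without any 1 of the 4 KO libraries (adjusted p = 0.0889 to 0.160), with scaling by library size alone (adjusted p = 0.122) and for the mean of both clones in the fit with 3 groups (adjusted p = 0.0921). DESeq2 called 12 of the 25 higher. A further 17 of the 25 were higher at an unadjusted p under 0.05 and the list's median log2 fold change was 0.81, against 0.85 for the OAS members. Isg15, the ubiquitin-like interferon-induced protein, had 25.1 and 99.1 CPM in WT libraries and 44.1 to 66.6 CPM in KO libraries, a spread in WT like that of Oasl2. Its log2 fold change was -0.23 with all libraries, 1.05 without WT mouse 2 and -0.89 without WT mouse 1. It was 0.13 with scaling by library size alone and 0.14 by limma-voom. The interferon-gamma response list had 1 of 16 called, the GTPase Tgtp1, which rose by 2.64 ± 0.24 (SE; edgeR's quasi-likelihood test, adjusted p = 0.0163). The Tgtp1 call was lost without 3 of the KO libraries, all but KO clone 1 mouse 2 (adjusted p = 0.0729 to 0.110), with scaling by library size alone (adjusted p = 0.0549) and for the mean of both clones (adjusted p = 0.0509). In that list 12 of 16 were higher at an unadjusted p under 0.05, DESeq2 called 9 higher, and the median was 1.12.

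**Figure D4:**
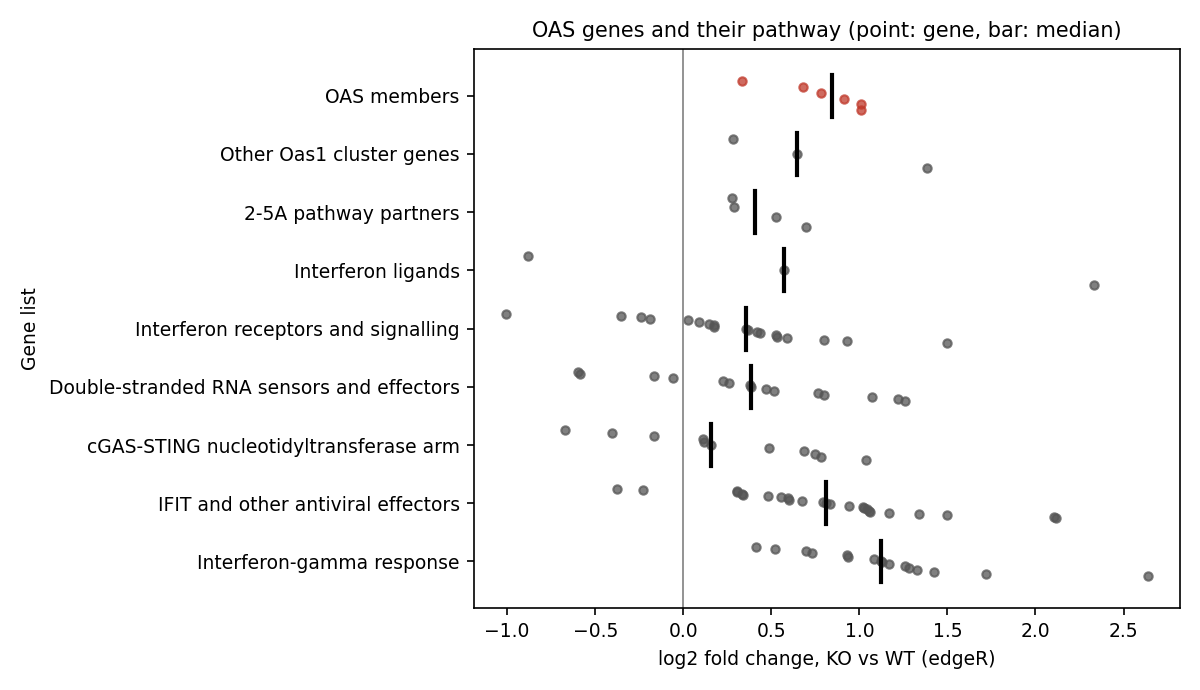
Log2 fold change of KO against WT from edgeR (horizontal axis) for each tested gene (points) of the OAS members (red) and 8 further gene lists (vertical axis), with the median of each list as a black bar. The OAS median of 0.85 lies near that of the IFIT and other antiviral effectors (0.81), above that of the 2-5A partners (0.41) and below that of the interferon-gamma response (1.12).

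Genes whose levels followed the family most closely were found by the root mean square difference, over the 6 libraries, between each gene's centred log2 CPM and the mean of the members. The nearest of 10584 genes with a mean of at least 5 CPM was Usp18, the protease that removes Isg15 and dampens the type I interferon receptor, at a difference of 0.03, where the median over genes was 0.57. Usp18 was at 49.5 and 92.0 CPM in WT, 154 and 117 CPM with clone 1, and 119 and 102 CPM with clone 2, with a log2 fold change of 0.80 ± 0.29 (SE; edgeR's quasi-likelihood test, adjusted p = 0.329), 1.29 without WT mouse 2 and 0.43 without WT mouse 1. Cd40, a costimulatory receptor of antigen-presenting cells, followed at 0.06, and Ly9, Batf2, Hpse, Nr1h3, Gm11711, H2-T24 and Pde7b at 0.11 to 0.15. The tenth gene was an unnamed row with the same values as Gm11711. When WT mouse 2 was left out, 3 of the 10 remained, namely Usp18, Cd40 and Hpse. Taken singly, the nearest gene to Oas2 was Usp18, to Oas1g Hpse, to Oas3 Batf2 and to Oas1a Sema4a. Oasl1 was nearest to Irg1, the enzyme that makes itaconate, and Oasl2 to Rasgrp4.

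Markers of other cells moved with the OAS genes in part. The 13 T and NK cell markers in the table summed to 18.2 and 34.5 CPM in WT, against 77.6 to 159 CPM in KO, and KO clone 1 mouse 1 was highest in both this sum and that of the 6 OAS genes (1220.2 CPM, against 393 and 787 CPM for WT, the other KO libraries lying at 836 to 938 CPM). Of these markers 11 of 13 were higher at an unadjusted p under 0.05, and 2, Cd3g and Cd2, were called by edgeR. Both calls were lost without any 1 of the KO libraries, with scaling by library size alone, by limma-voom and for the mean of both clones. With the mouse number as a block only Cd3g was called, and DESeq2 called 8 of the 13 higher. None of the 13 was at 0 in all libraries. The 10 monocyte markers summed to 3326 and 4489 CPM in WT, against 3392 to 4222 CPM in KO, and Ly6c2, a marker of inflammatory monocytes with 2.72 and 4.27 CPM in WT against 85.5 to 100.4 CPM in KO, was the 1 called (edgeR's quasi-likelihood test, log2 fold change 4.72, adjusted p = 0.00279). The 8 plasmacytoid dendritic cell markers, from a cell type known for making interferon alpha, overlapped, with 96.1 and 106 CPM in WT against 95.8 to 123 CPM in KO. Sums of 4 scarcer lists were higher in every KO library than in either WT library. The 10 neutrophil markers summed to 40.5 and 38.9 CPM in WT against 56.6 to 75.3 CPM in KO, and the 8 dendritic cell markers to 21.6 and 30.96 against 32.3 to 49.5 CPM. The 7 endothelial markers summed to 23.4 and 31.4 CPM in WT against 48.0 to 61.7 CPM in KO, and the 5 B cell markers to 5.89 and 3.92 against 8.44 to 13.6 CPM. Within these 4 lists edgeR's quasi-likelihood test called 0 genes, with Pecam1 (adjusted p = 0.0525) and Ccr7 (adjusted p = 0.0561) nearest to the threshold. In it 4 of 8, 4 of 8, 2 of 5 and 1 of 2 tested genes were higher at an unadjusted p under 0.05. At that level 1 neutrophil marker was lower. Fold changes were positive for 7 of 8, 6 of 8, 4 of 5 and 2 of 2. DESeq2 called 3, 2, 1 and 1 of the tested genes higher. The 6 epithelial or tumour cell markers went the other way, at 15.7 and 44.1 CPM in WT against 11.1 to 12.9 CPM in KO. The 8 fibroblast markers summed to 4128 CPM in WT mouse 1, 11981 CPM in WT mouse 2 and 2392 to 3930 CPM in KO, most of it Col3a1. The part of these cells, and of the depth and Rn45s share of WT mouse 2, in the OAS values was not tested.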

How the data were processed

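Per the labels' protocols, total RNA of the sorted macrophages was depleted of ribosomal RNA and made into TruSeq libraries. The deposited table holds estimated counts per symbol as whole numbers. The submitters' processing notes name Salmon 0.7.2 and the build mm10. Which transcript set was used, how transcripts were summed to symbols and whether strand was used: not given in the sources used here. No value column was left without a sample (0).

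Library totals were 20038047 to 40022755. Counts of the 2 libraries within a group differed by far more than counting noise (chi-square over degrees of freedom 80.5 to 860), and each library was 1 sample. Rounding left the estimated counts unchanged. They were filtered with filterByExpr (minimum count 10, minimum total 15), scaled by TMM and tested by the quasi-likelihood F test of edgeR 4.0.16 under R 4.3.3, with Benjamini-Hochberg adjustment over all 15560 genes and a threshold of 0.05. KO against WT used 2 genotype levels, so that the spread between clones counts as error. Contrasts of single clones came from a fit with 3 groups and share the WT libraries. Standard errors are the log2 fold change's size over the root of F. Variation between libraries, as edgeR's biological coefficient, was 0.297. Mice of 1 clone are separate mice but not separate knockouts.

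Alternatives were RLE factors, library size alone, other filters, DESeq2 1.42.0, limma-voom (3.58.1), the mouse number as a block, Oas1a and Oas1g summed, Rn45s removed, the mean of both clones, and each library left out. Fits were tested on simulated counts. All members, other Oas1 cluster genes and 2-5A partners are named whatever their result, with up to 4 genes per direction of each other pathway list by smallest p, a set of interferon pathway genes, cell type markers as a check, and the genes nearest to the members in pattern. Some genes of the 2-5A and signalling lists are not reported here and stand outside their counts. Members and lists were chosen with earlier results of these data known. Lengths and positions are from GENCODE M21 on GRCm38. Promoters were searched and aligned with Biopython 1.88.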

Additional observations from a re-analysis of the deposited data

Results flagged for a closer look

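Among the 4 KO libraries, 1 library lay far from the other 3 for 3 of the 38 genes examined, by Dixon's test at the 95% level. Chance alone gives such a gap for about 1 in 20 groups. Irf7 was at 654 CPM in KO clone 1 mouse 1, the library that also had the most Oas2, Oas3 and Oasl1, against 511 CPM in the next. Irf9 was at 94.0 CPM in KO clone 1 mouse 2, below 102 CPM in the next. Akap7, whose product can cleave 2-5A, was at 21.2 CPM in KO clone 2 mouse 1, above 17.8 CPM in the next. None of the 6 OAS members had such a library.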

How the results depend on the processing

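Log2 fold changes of KO against WT kept their sign under every alternative for Oas1a, Oas1g, Oas2, Oas3 and Oasl1. Members called numbered 0 with all libraries and 0 to 1 with a library left out for KO against WT, 0 to 2 for clone 1 and 0 to 2 for clone 2. DESeq2 called 1 for KO against WT, Oas1g at 0.91 (0.71 to 1.14 with a library left out), and 1 for clone 1, and the fit without a filter 1 for clone 1. Genes called for KO against WT numbered 21, with 8 under library size alone, 111 without a filter, 499 by DESeq2, 1 for the mean of both clones and 1 to 6020 with a library left out, 6020 being without WT mouse 1. For clone 1 against WT they numbered 1, with 123 without a filter, 0 at 5 CPM in 2 libraries, 271 by DESeq2, 0 with the block and 0 to 5535 leaving out a library. For clone 2 against WT they numbered 1, with 9 under RLE factors, 229 without a filter, 0 at 5 CPM in 2 libraries, 465 by DESeq2, 0 with the block, 8 without Rn45s and 0 to 6445 leaving out a library. Between clones they numbered 0, with 53 without a filter, 117 by DESeq2 and 0 to 87 leaving out a library. Isg15 (-0.23) turned to 0.13 under library size alone, which moved the median of all genes to 0.14, and to 0.14 by limma-voom. With a library left out the sign turned for Isg15 (-0.89 to 1.05), Oasl2 (-0.25 to 1.33, with clone 1 -0.28 to 1.30, with clone 2 -0.21 to 1.36), Cnp (-0.11 to 0.83), Stat2 (-0.26 to 0.54), Abce1 (-0.071 to 2.34) and Akap7 (-0.047 to 0.68). Between clones it turned for Oas1a (-0.12 to 0.064), Oas1g (-0.29 to 0.13), Oas3 (-0.63 to 0.19) and Oasl2 (-0.040 to 0.17). The cause was not tested. The main fits did not pair samples by mouse number. Across 10590 genes, same-numbered libraries deviated with a correlation of -0.308 for WT and clone 1, 0.107 for WT and clone 2, and 0.231 for both clones. Each value rests on groups of 2 libraries, so it cannot decide whether the number marks a shared batch. With the mouse number as a block 15 genes were called for KO against WT and 0 members.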
